A study of Mus musculus with 10 samples.

Results

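The BCL2 family decides whether a cell commits to mitochondrial apoptosis, and 9 of its genes were examined in splenic dendritic cells (DCs): the survival genes Bcl2, Bcl2l1 (which encodes BCL-XL) and Mcl1, the pore-forming effectors Bax and Bak1, and the BH3-only death genes Bcl2l11 (BIM), Bid, Pmaip1 (NOXA) and Bmf. Survival proteins hold the effectors in check at the mitochondrial membrane, BH3-only proteins relieve that hold or activate the effectors directly, and the effectors then release cytochrome c. In DCs the family is known for setting lifespan, with BIM as a death factor and BCL-XL and MCL1 as survival factors. The 9 genes were chosen by name with earlier results of these data known, which may raise the share of them called. For each, the probe set with exactly 1 gene symbol and the highest mean over the 10 arrays was read, which gave a value for 8 of the 9 members among 21994 genes in all. Bax was not analysed here, because none of the probe sets named here had Bax as its 1 symbol. All 8 passed the filter on low values (above the array median in at least 2 of 10 arrays), as did 13298 genes in all.

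The DCs were CD11c+ spleen cells isolated with magnetic beads and measured on Mouse Gene 2.0 ST microarrays from Affymetrix, 1 array per sample. The groups were C3ar1-/-C5ar1-/- DCs (DKO, lacking the receptors for the complement fragments C3a and C5a) after CpG (n = 3), DKO unstimulated (n = 2), wild type (WT) after CpG (n = 3) and WT unstimulated (n = 2). CpG, unmethylated DNA that Tlr9 senses, was injected at 100 µg and the cells were taken 4 h later, and unstimulated samples came from mice given vehicle. The labels do not give the strain, age or sex of the mice or say whether a sample pools several mice, so the p-values measure only the spread between these samples. Values are log2 intensities, on which a difference of 1 is a doubling.

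The isolates carried DC genes, but some DKO arrays stood apart in other ways. All 9 conventional DC markers with a probe set (of 10 listed) lay above the array median in every array. So did 11 of 11 red pulp macrophage markers, 8 of 10 B cell markers and 5 of 6 plasma cell markers. This measure therefore does not set DCs apart from those cell types. The mean of 3 Y-linked genes was 7.33 to 7.93 in 3 DKO arrays (CpG 1, CpG 2 and unstimulated 1) and 3.21 to 3.68 in the other 7. In the 2 other DKO arrays (CpG 3 and unstimulated 2) red pulp macrophage markers (11 of 11 measured) had a median, centred per gene, of -1.28 and -1.21, against 0.03 to 0.58 in the other 8 arrays. C3ar1 averaged 0.63 lower and C5ar1 1.53 lower in DKO than in WT on the log2 scale (limma, adjusted p = 0.0882 and 0.0780). Whether their probes lie inside the deleted parts is not known here.

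Sequence upstream of the members' transcription starts was read from RefSeq (GRCm38.p6), which held 13 windows for 8 members and none used here for Pmaip1. Each window of 250 bases was searched on both strands for 6 motifs of factors known in stimulated DCs. The NF-kB core (GGG, any 2 bases, then TTTCC) occurred in 1.4% of 32851 windows of all genes and in the windows of 2 members, Bcl2l1 and Mcl1. A looser form (GGG, any 5 bases, then CC), which includes the core, occurred in 45.8% of all windows and in 9 of the 13. The FOXO motif GTAAACA occurred in 3.2% of all windows and upstream of 1 member, Bcl2l11. The interferon response element (GAAA, any 2 bases, GAAA, in 3.0% of all windows), the AP-1 motif TGANTCA (6.7%) and the STAT motif TTCNNNGAA (7.0%) had no match in the 13. All 3 member windows with a core NF-kB or FOXO match are shown. Each is printed 5′ to 3′ on the strand of its gene, with the match in capitals. The NF-kB match reads as the reverse complement in both windows, 218 bases before the start in 1 of 3 windows of Bcl2l1 (chr2:152830718-152830967, minus strand) and 28 bases before it in Mcl1 (chr3:95658471-95658720, plus strand). The FOXO match lies 227 bases before the start in 1 of 2 windows of Bcl2l11 (chr2:128125788-128126037, plus strand).
Bcl2l1: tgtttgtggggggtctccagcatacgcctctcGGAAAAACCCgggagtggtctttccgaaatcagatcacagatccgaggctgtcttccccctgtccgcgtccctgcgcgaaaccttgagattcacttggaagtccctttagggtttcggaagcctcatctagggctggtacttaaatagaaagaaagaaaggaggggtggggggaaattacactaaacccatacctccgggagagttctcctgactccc
Mcl1: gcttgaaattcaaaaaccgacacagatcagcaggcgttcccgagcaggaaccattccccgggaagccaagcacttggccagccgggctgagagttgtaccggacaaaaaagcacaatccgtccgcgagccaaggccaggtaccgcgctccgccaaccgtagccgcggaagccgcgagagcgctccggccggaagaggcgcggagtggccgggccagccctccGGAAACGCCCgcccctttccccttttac
Bcl2l11: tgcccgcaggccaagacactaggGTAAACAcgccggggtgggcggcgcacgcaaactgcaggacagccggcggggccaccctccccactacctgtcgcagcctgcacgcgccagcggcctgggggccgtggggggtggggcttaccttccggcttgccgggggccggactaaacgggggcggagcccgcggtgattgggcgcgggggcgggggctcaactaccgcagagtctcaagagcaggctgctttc
A match describes these letters only and does not show that a factor binds there.

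What CpG does to the balance of survival and death genes was the first comparison, made separately in DKO and in WT DCs. Bcl2l11 and Bcl2l1, a death gene and a survival gene, rose together and steeply in both genotypes. Bcl2l11 rose 3.76-fold in DKO and 3.80-fold in WT, and Bcl2l1 rose 3.39-fold in DKO and 3.54-fold in WT. Mcl1, Bcl2, Bak1 and Pmaip1 did not pass in either genotype, Bid fell in WT and Bmf rose in DKO. In DKO DCs 3 of the 8 members were called (adjusted p under 0.05), all higher, against 10.3% of all tested genes called, 4.56% higher and 5.76% lower. In WT DCs 3 of 8 were called, 2 higher and 1 lower, against 21.6% of all tested genes called, 8.24% higher and 13.4% lower. The CpG and unstimulated arrays did not overlap for 4 members in DKO (37.7% of all tested genes) and for 4 in WT (52.4%). The median change over the members was -0.0049 in DKO and 0.011 in WT, beside -0.037 and -0.039 over all tested genes.

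**Figure D1:**
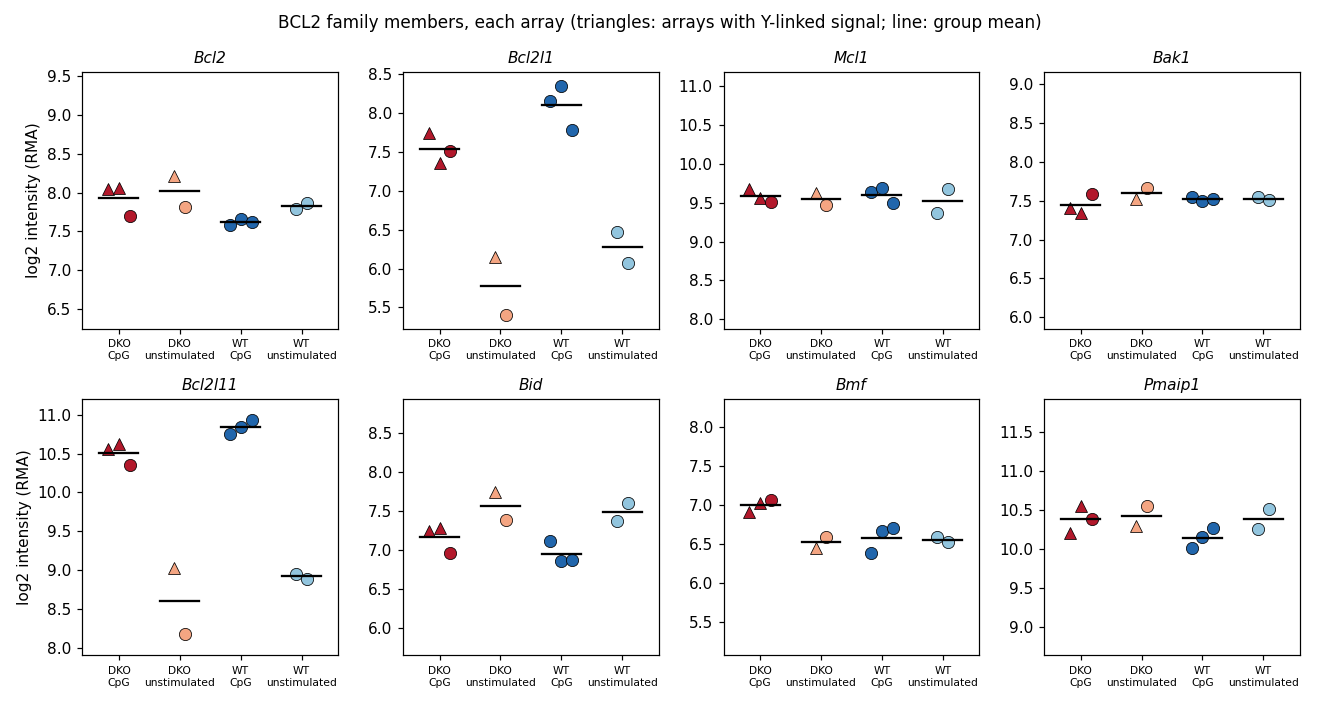
Log2 intensity (RMA) of the 8 members in each of the 10 arrays, in panels that span the same number of log2 units; triangles are the 3 DKO arrays with Y-linked signal and lines are group means. Bcl2l11 and Bcl2l1 stand apart with CpG in both genotypes, while all Mcl1 values lie between 9.37 and 9.69.

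Among the survival genes, Bcl2l1, whose product sequesters BIM and the effectors, was the one that passed. It measured 7.74, 7.36 and 7.51 in DKO DCs after CpG and 6.15 and 5.40 in unstimulated DKO DCs. In WT DCs it measured 8.16, 8.35 and 7.78 after CpG and 6.47 and 6.08 without stimulation. The CpG arrays lay above the unstimulated ones in both genotypes, and the lowest value, in DKO unstimulated 2, was below that array's median of 5.53. The rise was 1.76 ± 0.24 in DKO (SE, limma adjusted p = 0.00203) and 1.83 ± 0.24 in WT (limma adjusted p = 0.000591). Only 0.56% of tested genes had a larger absolute change in DKO and 1.23% in WT.

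Mcl1, which encodes a short-lived survival protein, stayed within a narrow band on the probe set read. It measured 9.68, 9.56 and 9.51 in DKO DCs after CpG and 9.63 and 9.47 in unstimulated DKO DCs, and 9.64, 9.69 and 9.49 in WT DCs after CpG and 9.37 and 9.67 without stimulation. Its groups overlapped in both genotypes. The differences were 0.04 (95% interval -0.25 to 0.32) in DKO and 0.08 (-0.20 to 0.37) in WT. Changes within these bounds could not be seen with these arrays.

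Bcl2, the founding survival gene, measured 8.04, 8.06 and 7.70 in DKO DCs after CpG and 8.22 and 7.81 in unstimulated DKO DCs. In WT DCs it measured 7.58, 7.66 and 7.62 after CpG and 7.79 and 7.87 without stimulation. The WT CpG arrays lay below both unstimulated WT arrays, while the DKO groups overlapped. The differences, -0.08 ± 0.15 in DKO and -0.21 ± 0.15 in WT, did not pass (limma adjusted p = 0.807 and 0.399).

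Among the BH3-only genes, Bcl2l11, whose product binds every survival protein of the family, had the largest rise. It measured 10.56, 10.62 and 10.35 in DKO DCs after CpG and 9.02 and 8.18 in unstimulated DKO DCs. In WT DCs it measured 10.75, 10.85 and 10.94 after CpG and 8.95 and 8.89 without stimulation. No CpG array came near an unstimulated one, and DKO unstimulated 2 was the lowest of all. The rise was 1.91 ± 0.21 in DKO (SE, limma adjusted p = 0.000716) and 1.93 ± 0.21 in WT (limma adjusted p = 0.000206). Of all tested genes 0.42% had a larger absolute change in DKO and 1.02% in WT.

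Bid links death receptors to mitochondria once caspase-8 cleaves its product. It measured 7.24, 7.28 and 6.96 in DKO DCs after CpG and 7.74 and 7.39 in unstimulated DKO DCs, and 7.12, 6.85 and 6.87 in WT DCs after CpG and 7.38 and 7.60 without stimulation. The CpG arrays were the lower ones in both genotypes, without overlap. The fall passed in WT, at -0.54 ± 0.16 (limma adjusted p = 0.0327), and the DKO difference of -0.40 ± 0.16 did not pass (limma adjusted p = 0.140). The DKO difference did pass with Y-linked signal (-0.44, adjusted p = 0.0441) or macrophage markers (-0.46, adjusted p = 0.0489) as a covariate. The WT call rests on few arrays, while the size of the fall moved less: it was -0.66 and -0.43 without WT unstimulated 1 or 2 (adjusted p = 0.0724 and 0.231), and -0.49 and -0.50 without WT CpG 2 or 3 (adjusted p = 0.0937 and 0.0883). It was also lost after a further quantile normalization (-0.47, adjusted p = 0.0816) and with B cell markers as a covariate (-0.92, adjusted p = 0.129).

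Bmf, a BH3-only gene known for responses to loss of attachment, measured 6.92, 7.03 and 7.06 in DKO DCs after CpG and 6.45 and 6.59 in unstimulated DKO DCs. In WT DCs it measured 6.38, 6.66 and 6.71 after CpG and 6.59 and 6.53 without stimulation. The DKO CpG arrays were the 3 highest of the 10, and the WT groups overlapped. The rise in DKO was 0.48 ± 0.13 (limma adjusted p = 0.0402) and the WT difference was 0.03 ± 0.13 (limma adjusted p = 0.918). The DKO call held in 10 of 23 alternatives. It was lost without any 1 of the 5 DKO arrays, either unstimulated WT array or WT CpG 2 (adjusted p = 0.0555 to 0.182), and without the filter on low values (adjusted p = 0.0646). It was also lost without the 3 arrays with Y-linked signal (0.47, adjusted p = 0.298) and without the 2 other DKO arrays (0.52, adjusted p = 0.107), with only the DKO arrays in the fit (0.48, adjusted p = 0.103), and with B cell markers as a covariate (0.57, adjusted p = 0.253). The size of the rise was 0.41 to 0.55 on leaving out any 1 of the 5 DKO arrays, and leaving out a WT array cannot move it.

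Pmaip1, a BH3-only gene whose product targets MCL1, and Bak1, an effector, overlapped between CpG and unstimulated arrays in both genotypes. Pmaip1 lay between 10.01 and 10.56 in all 10 arrays, with differences of -0.04 ± 0.15 in DKO and -0.24 ± 0.15 in WT (limma adjusted p = 0.896 and 0.305). Bak1 lay between 7.34 and 7.67, with differences of -0.15 ± 0.11 in DKO and -0.0047 ± 0.11 in WT (limma adjusted p = 0.482 and 0.984).

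**Figure D2:**
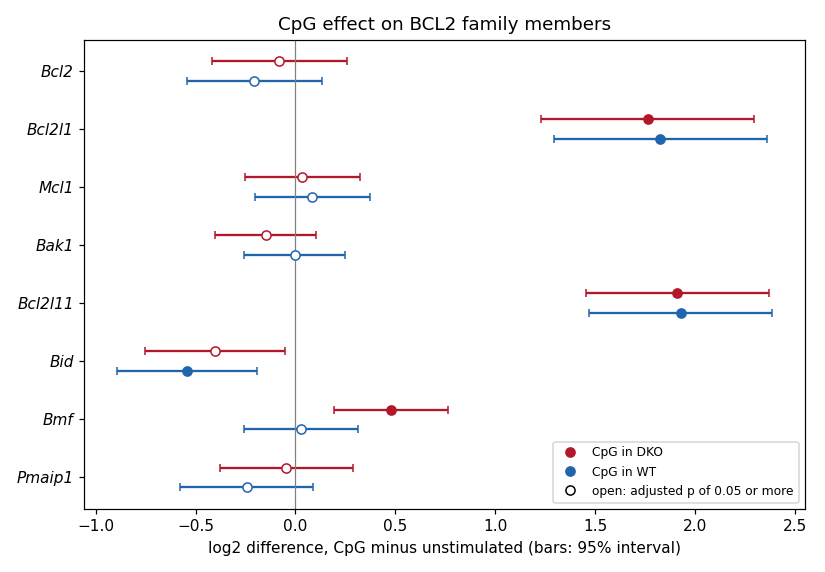
Log2 difference between CpG and unstimulated arrays for each member in DKO (red) and WT (blue), with 95% intervals; filled points passed at an adjusted p under 0.05. Bcl2l11 and Bcl2l1 lie between 1.76 and 1.93 in both genotypes, and the remaining differences lie between -0.54 and 0.48.

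The rises of Bcl2l11 and Bcl2l1 passed in 22 of 23 alternatives in each genotype. Without the 3 DKO arrays with Y-linked signal, the DKO rise was 2.18 for Bcl2l11 and 2.11 for Bcl2l1, and without the 2 other DKO arrays it was 1.57 and 1.40, each passing. The sample titles fall into numbers under 20 and of 20 and over, a split that the labels do not call a batch. In DKO this is the same split as that by Y-linked signal and by macrophage markers, so the 3 cannot be told apart there and their values below repeat those above. Within the lower numbers Bcl2l11 rose by 1.57 in DKO and 1.88 in WT, and Bcl2l1 by 1.40 and 1.98. Within the higher numbers, which hold no unstimulated WT array, the DKO differences were 2.18 and 2.11. Over the same splits Bmf in DKO differed by 0.52 and 0.47, and Bid in WT by -0.50 within the lower numbers.

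Marker lists also differed with CpG, those of DCs included. The conventional DC median was -0.08 to 0.10 in DKO DCs after CpG and 0.20 to 0.38 in unstimulated DKO DCs, and -0.28 to -0.18 in WT DCs after CpG and 0.08 to 0.17 without stimulation. Plasma cell markers (6 of 6 measured) were at -0.01 to 0.29 in DKO DCs after CpG and -0.19 to -0.18 in unstimulated DKO DCs, and at 0.05 to 0.18 in WT DCs after CpG and -0.25 to -0.06 without stimulation. The median of the B cell markers (10 of 11 measured, centred per gene) was -0.44 to 0.08 in DKO DCs after CpG and 0.18 to 0.45 in unstimulated DKO DCs, and -0.34 to -0.21 in WT DCs after CpG and 0.33 to 0.45 without stimulation. The cDC1 list, of a DC subset known for cross-presentation (7 of 8 measured), was at -0.30 to 0.12 in DKO DCs after CpG and 0.47 to 0.77 in unstimulated DKO DCs. In WT DCs the cDC1 markers were at -0.80 to -0.51 after CpG and 0.76 to 0.92 without stimulation. With the B cell median as a covariate, Bcl2l11 differed by 1.48 in DKO and 1.32 in WT (adjusted p = 0.0531 and 0.0887), and Bcl2l1 by 1.40 and 1.31 (adjusted p = 0.119 and 0.161), so neither passed. The B cell median did not overlap between CpG and unstimulated arrays in either genotype, so this covariate and CpG can hardly be told apart. With it the SE of the Bcl2l11 difference went from 0.21 to 0.28 in DKO and from 0.21 to 0.35 in WT. With this covariate 80 genes were called in DKO and 213 in WT, against 1372 and 2873 without it. The part of the conventional DC, cDC1 and plasma cell lists in the changes was not tested, and in bulk isolates fewer cells of a type and less RNA per cell cannot be told apart.

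Whether the CpG effect differs between genotypes was tested by subtracting the WT effect from the DKO effect. This called 0 of the 8 members (limma), against 0.00752% of all tested genes, and 1 had an unadjusted p under 0.05, against 5.65%. For Bcl2l11 the difference was -0.02 (95% interval -0.66 to 0.63), for Bcl2l1 -0.06 (-0.82 to 0.69) and for Bid 0.14 (-0.36 to 0.63). These intervals are wide, and unequal rises of that size could not be seen. Bmf had the largest difference among the 8, at 0.45 (0.05 to 0.85, unadjusted p = 0.0312, adjusted p = 0.850), so the call of Bmf in DKO and not in WT is not shown to be a difference between genotypes.

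DKO and WT DCs were next compared directly, after CpG, without stimulation and averaged over both. No member passed in any of the 3 comparisons by limma. After CpG 0 of 8 were called and 3 had an unadjusted p under 0.05, against 0.12% and 14.3% of all tested genes. Without stimulation 0 were called and 0 had an unadjusted p under 0.05 (0.00752% and 4.63% of all tested genes). Averaged over stimulation the counts were 0 and 3 (0.143% and 11.6%). After CpG, the groups did not overlap for 4 members, against 19.2% of all tested genes: Bcl2 and Bmf lay higher in DKO (11.6% of all genes), and Bcl2l1 and Bcl2l11 lower (7.55%). The differences after CpG were 0.31 ± 0.14 for Bcl2, 0.42 ± 0.11 for Bmf, -0.56 ± 0.22 for Bcl2l1 and -0.34 ± 0.19 for Bcl2l11, with adjusted p of 0.135 to 0.448.

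Averaged over stimulation, Bcl2l1 was 0.53 ± 0.17 lower and Bcl2l11 0.33 ± 0.15 lower in DKO, neither of which passed (limma adjusted p = 0.287 and 0.426). Without the 3 arrays with Y-linked signal the differences were -0.73 and -0.62, with 1 DKO array left in each group. With Y-linked signal as a covariate they were -0.75 and -0.62 (adjusted p = 0.0398 and 0.0170). Far more genes of all kinds passed in those fits, 978 and 907 against 19. Without the 2 other DKO arrays they were -0.33 and -0.08 (adjusted p = 0.536 and 0.822). The difference was thus larger with DKO CpG 3 and DKO unstimulated 2, the arrays with low macrophage markers, than with the 3 others. With the macrophage median as a covariate the differences were -0.42 and -0.14 (adjusted p = 0.496 and 0.750), and with the neutrophil median (12 of 12 markers measured) -0.25 and -0.24 (adjusted p = 0.892 and 0.889). Neutrophil markers were at -1.55 to 0.06 in DKO DCs after CpG and -1.46 to -1.06 in unstimulated DKO DCs, against -0.06 to 1.90 in WT DCs after CpG and 0.16 to 0.89 without stimulation. The 2 DKO arrays with low macrophage markers have title numbers of 20 and over, as does only 1 WT array. Without the 3 others, genotype and title series can hardly be told apart. Within title numbers under 20, DKO minus WT was -0.12 without stimulation and -0.71 after CpG for Bcl2l1, and 0.10 and -0.21 for Bcl2l11. Within those of 20 and over, with 1 array of each genotype after CpG, it was -0.27 for Bcl2l1 and -0.59 for Bcl2l11.

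Without stimulation Bcl2l1 differed by -0.50 ± 0.26 and Bcl2l11 by -0.32 ± 0.23, DKO minus WT. Without DKO unstimulated 2 these values were -0.12 and 0.10, and without DKO unstimulated 1 they were -0.87 and -0.74 (limma adjusted p = 0.361 and 0.308).

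Bcl2 went the other way with the same split of arrays. Its 3 highest values, 8.22, 8.06 and 8.04, were those of the 3 arrays with Y-linked signal, and the 2 other DKO arrays, at 7.81 and 7.70, lay within the WT range of 7.58 to 7.87. Averaged over stimulation, Bcl2 was 0.25 ± 0.11 higher in DKO (limma adjusted p = 0.404), but 0.03 without those 3 arrays and 0.41 without the 2 others. The Bmf difference averaged 0.19 ± 0.09 (limma adjusted p = 0.446), with 0.26 and 0.14 on leaving out the same arrays.

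**Figure D3:**
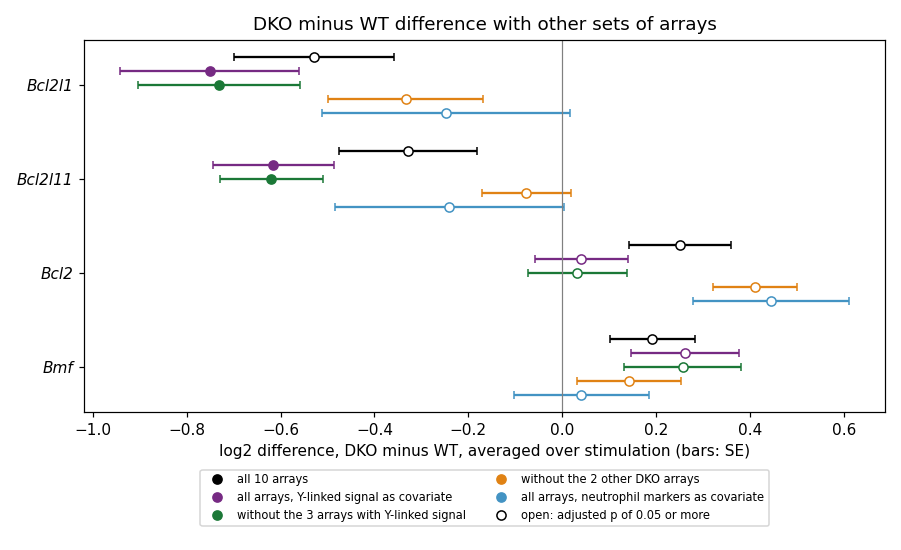
DKO minus WT difference (log2, averaged over stimulation, bars are SE) for 4 members with all 10 arrays, with Y-linked signal or neutrophil markers as a covariate, and without either set of DKO arrays; filled points passed at an adjusted p under 0.05. Bcl2l1 and Bcl2l11 lie lower and Bcl2 nearer 0 without the 3 arrays with Y-linked signal.

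The genes around the family were read from 8 lists of other BCL2 relatives and of genes that act before or after the mitochondrion. These lists, too, were chosen with earlier results of these data known, which may raise the shares called. Of 87 listed genes 77 had a probe set with 1 symbol and 71 were tested. In DKO DCs 12 rose with CpG and 3 fell, or 21.1% called against 10.3% of all tested genes. In WT DCs 21 rose and 7 fell, or 39.4% against 21.6%. The median change over the 71 was 0.02 in DKO and -0.02 in WT. None of the 71 was called in the difference of the CpG effects or between genotypes by limma. An unadjusted p under 0.05 was seen for 4 in the difference of CpG effects (5.65% of all tested genes), 17 after CpG (14.3%), 2 without stimulation (4.63%) and 11 averaged (11.6%).

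Bcl2l14, Bcl2a1a and Bcl2a1c rose in both genotypes. Of 10 other family genes tested, 3 rose in DKO and none fell, and in WT 3 rose and 1 fell. Over all tested genes 10.3% were called in DKO and 21.6% in WT. Bcl2a1a, a survival gene of the A1 group, rose by 0.62 ± 0.14 in DKO and 0.71 ± 0.14 in WT, and Bcl2a1c by 0.48 and 0.53. These genes have near-identical copies, so their probes may read more than 1 of them. Bcl2l14 rose by 1.28 ± 0.14 in DKO and 1.15 ± 0.14 in WT. Bcl2l2, the survival gene of BCL-W, was not called, at -0.32 in DKO and -0.08 in WT. The BH3-only genes Bbc3 (PUMA) and Bad were not called, at -0.0067 and -0.17 in DKO and -0.04 and -0.28 in WT.

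Downstream of the mitochondrion, Apaf1, the scaffold that cytochrome c activates, rose by 1.30 ± 0.17 in DKO and 1.47 ± 0.17 in WT. In that list 8 of the 10 genes were called in neither genotype. The shares called, 10% in DKO and 20% in WT, were near the 10.3% and 21.6% of all tested genes. Casp9, the caspase that the scaffold activates, fell by 0.51 in WT and differed by -0.24 in DKO (limma adjusted p = 0.323). Of 6 caspases and substrates tested, 3 fell in DKO and 0 rose, and in WT 2 fell and 1 rose. That is 50% called in each genotype, against the same shares of all tested genes. Parp1, a substrate of caspases, changed by -0.71 in DKO and -0.90 in WT, and Casp2, an initiator caspase, by -0.54 and -1.20. Dffa, the inhibitor of the apoptotic DNase, changed by -0.48 in DKO and by -0.28 in WT, where it did not pass (limma adjusted p = 0.181).

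Single inhibitors of death signalling rose in both genotypes. Cflar, which blocks caspase-8, rose by 1.69 ± 0.11 in DKO and 1.53 ± 0.11 in WT. Birc3 and Birc2, ubiquitin ligases that restrain TNF-induced death, rose by 0.80 and 0.78 in DKO and by 0.94 and 1.48 in WT, and the other 6 genes of their list were not called. The median of that list was -0.20 in DKO and -0.03 in WT. Its 2 of 8 genes called in each genotype (25%) compare with 10.3% of all tested genes in DKO and 21.6% in WT. Of 10 death receptor pathway genes tested, 3 rose in DKO and 6 in WT, and none fell. Over all tested genes 4.56% rose in DKO and 8.24% in WT. Fas, the receptor of Fas ligand, rose by 1.56 ± 0.28 in DKO and 2.13 ± 0.28 in WT, and Traf1, an adaptor of TNF receptors, by 0.69 and 0.89. Casp8, the initiator caspase of this route, rose by 0.70 in WT and differed by 0.43 in DKO (limma adjusted p = 0.0737).

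Genes of lytic death rose too, 2 of 7 tested in DKO and 4 in WT, with none fallen. The shares of all tested genes that rose were 4.56% in DKO and 8.24% in WT. Casp4, which cleaves the pore protein gasdermin D, rose by 2.26 ± 0.18 in DKO and 2.51 ± 0.18 in WT. Zbp1, a nucleic acid sensor that can start necroptosis, rose by 1.56 ± 0.37 and 2.36 ± 0.37. Gsdmd itself rose by 0.69 in WT and differed by 0.10 in DKO (limma adjusted p = 0.799).

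Among regulators, Foxo3 and E2f1 encode transcription factors known to drive Bcl2l11. The arrays measured their mRNA and not the activity of the proteins, and a part in the Bcl2l11 rise was not tested. In WT DCs Foxo3 fell by 0.67 and E2f1 by 1.13, and in DKO DCs they differed by -0.48 and -0.66 (limma adjusted p = 0.0978 and 0.0557). Cdkn1a, a target of p53, rose by 0.87 in DKO and 1.36 in WT, but other p53 targets of the list did not all rise with it in WT. Of 10 regulators tested, 1 rose in DKO and none fell, and in WT 2 rose and 3 fell. The DKO share of 10% was near the 10.3% of all tested genes called, and the WT share was 50% against 21.6%. Of 10 kinases and ubiquitin enzymes acting on BCL2 proteins, 0 were called in DKO by limma (10.3% of all tested genes) and 4 had an unadjusted p under 0.05 (25% of all). In WT 2 of the 10 were called, both higher, against 21.6% of all tested genes called and 8.24% called higher. These were Pim1 and Pim2, kinases that phosphorylate BAD, at 0.52 and 0.98, with differences of 0.39 and 0.92 in DKO (limma adjusted p = 0.0737 and 0.0694).

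**Figure D4:**
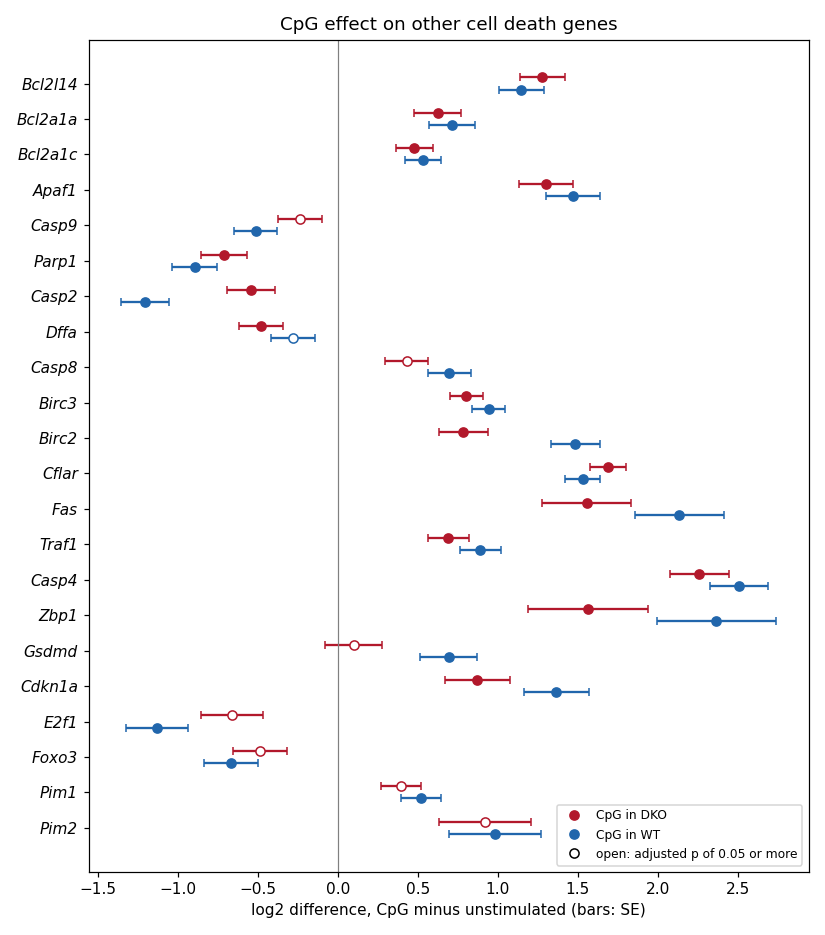
Log2 difference between CpG and unstimulated arrays (bars are SE) in DKO (red) and WT (blue) for the called genes named from the 8 lists; filled points passed at an adjusted p under 0.05. Casp4, Fas, Cflar, Apaf1, Zbp1 and Bcl2l14 rose by more than 1 in both genotypes, and Casp2 and Parp1 fell in both.

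The tested genes whose values ran most nearly parallel to Bcl2l11, Bcl2l1 and Bid, the members called in WT, were found by Pearson's r over the 10 arrays, which fall into CpG and unstimulated groups, so any gene with a like CpG response scores high. Closest to Bcl2l11 were Txnrd1, a reductase of thioredoxin, Batf, a transcription factor of the AP-1 family, and 4833419F23Rik, at r = 0.990, 0.987 and 0.986. Closest to Bcl2l1 were Car5b, a mitochondrial carbonic anhydrase, Tspan3, a tetraspanin, and Il1rn, the interleukin-1 receptor antagonist, at 0.989, 0.988 and 0.988. Closest to Bid were Sumo3, a small ubiquitin-like modifier, Acss1, a mitochondrial acetyl-CoA synthetase, and Oxnad1, at 0.990, 0.971 and 0.964. None of the 9 stood in the 8 lists.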

How the data were processed

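Values were used as deposited. They are log2 intensities of probe sets from RMA, run by the authors in Affymetrix Expression Console per the submitters' processing notes. RMA corrects background, normalizes arrays and summarises probes. No source here states the tool versions or the genome build, or whether 1 RMA run held every array. The labels' protocols name an amplification kit for a first batch and another protocol elsewhere, and assign no sample to either.

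Of 41345 probe sets, 23521 had 1 symbol, 1814 several and 16010 none. Names were updated through gene identifiers (23328 matched), and 1 probe set per gene was kept, the one with the highest mean. Genes above the array median in at least 2 of 10 arrays were tested. The arrays' number, with 2 or 3 a group, limits the precision. All 10 arrays entered 1 fit with a mean for each of the 4 groups (limma 3.58.1 in R 4.3.3, lmFit and eBayes, 6 residual and 4.49 prior degrees of freedom). Tests were two-sided, with Benjamini-Hochberg adjustment over 13298 genes within a comparison. The pipeline was tested on simulated data.

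The members and gene lists were chosen with earlier results of these data known. All members were named. From each list up to 3 called genes with the smallest p were named per CpG comparison (in the genotype comparisons all called ones, of which there were none). For each of the 3 called members with the largest CpG effect in WT, the 3 genes of highest Pearson r were named. C3ar1 and C5ar1 were named as the targeted genes, and Bbc3, Bad and Bcl2l2 were named after their values were seen. Alternatives covered the filter, normalization, variance prior, probe set choice, samples, title series, marker covariates and single arrays. Replicate numbers follow deposit order and pair nothing. Figures were drawn with matplotlib 3.10.9.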

Additional observations from a re-analysis of the deposited data

How the results depend on the processing

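The 6 called CpG differences of members kept their direction in all 138 values from the alternatives. Many of these values could not change, because another filter or leaving out arrays of the other genotype does not move the estimate. Of the 42 other differences, 97 of 950 values changed sign, none beyond 0.41 in size. With the B cell median as a covariate the count of members called was 0 in DKO and 0 in WT (limma, 5 and 4 with an unadjusted p under 0.05). With Y-linked signal or macrophage markers as a covariate it was 4 for CpG in DKO (Bid was added), and without either set of DKO arrays 2. With Y-linked signal as a covariate it was 1 for DKO minus WT after CpG (Bcl2l11, -0.64, limma adjusted p = 0.0352) and 2 averaged over stimulation, and without the 3 arrays with Y-linked signal it was 2 averaged over stimulation. Leaving out the 2 other DKO arrays was chosen after seeing the data. Among differences whose values the report gives, the signs that changed, for which the cause was not tested, were these, and the other sign changes fell in DKO minus WT and difference-of-effects values not given there. With the B cell covariate, CpG in DKO gave 0.023 for Bak1, -0.17 for Mcl1 and 0.099 for Pmaip1, CpG in WT gave 0.24 for Bak1 and -0.20 for Mcl1, and the difference of CpG effects was 0.084 for Bcl2l1 and 0.16 for Bcl2l11. With the neutrophil covariate Mcl1 in DKO was -0.046 and Bak1 in WT 0.035. Bak1 in WT was 0.0030 with the Y-linked covariate and 0.073 after quantile normalization, where the difference of CpG effects for Bcl2l11 was 0.018. Bcl2 in DKO was 0.0051 over the mean of its probe sets, and Bmf in WT -0.020 with the title series as a block. Without the 3 arrays with Y-linked signal the difference of CpG effects was 0.29 for Bcl2l1 and 0.25 for Bcl2l11. Without the 2 other DKO arrays CpG in DKO gave -0.0058 for Mcl1 and 0.082 for Pmaip1, and Bcl2l11 without stimulation was 0.10. On leaving out 1 array at a time, CpG in DKO ranged over -0.28 to 0.12 for Bcl2, -0.043 to 0.11 for Mcl1 and -0.17 to 0.084 for Pmaip1. CpG in WT ranged over -0.066 to 0.23 for Mcl1, -0.025 to 0.015 for Bak1 and -0.037 to 0.13 for Bmf. Bcl2l11 without stimulation ranged over -0.74 to 0.10, and the difference of CpG effects over -0.44 to 0.31 for Bcl2l1, -0.44 to 0.41 for Bcl2l11 and -0.037 to 0.32 for Bid. Counts over all tested genes moved as well: CpG in DKO called 1372 genes, against 412 with only the groups compared, 408 without the 3 arrays with Y-linked signal and 422 at the lowest without 1 array. CpG in WT called 2873, against 1273 at the lowest without 1 array, and the B cell covariate left 80 and 213. DKO minus WT called 16 genes after CpG, 19 averaged and 1 without stimulation, against 794, 907 and 404 with the Y-linked covariate and 718, 978 and 249 without the 3 arrays. With the title series as a block these counts were 294, 50 and 2, and other alternatives gave 2 to 269, 1 to 72 and 1 to 12. The difference of CpG effects called 1 or 0. A group left with 1 array was assumed to vary like the others. No paired analysis was possible because the labels give no replicate numbers. With 2 or 3 arrays a group, differences within the printed intervals cannot be resolved.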
